A study of Mus musculus with 17 samples.

Results

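Ammonia is turned into urea in the hepatocytes around the portal vein, and the genes of that pathway are described here across 11 libraries of mouse hepatocyte RNA. The 10 genes were taken by name. They were the urea cycle genes Nags, Cps1, Otc, Ass1, Asl and Arg1, the amino acid breakdown genes Gls2 and Hal, and the periportal genes Cyp2f2 and Hsd17b13. All 10 were found among the 55536 gene identifiers of the deposited tables, and all 10 were among the 14393 genes that passed a filter on low counts and were tested.

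The cycle begins in the mitochondria and is completed in the cytosol. Nags makes the activator of Cps1, Cps1 fixes ammonia as carbamoyl phosphate, and Otc joins that to ornithine to give citrulline. Ass1 then adds aspartate, Asl splits off arginine, and Arg1 releases urea and renews ornithine. In the liver lobule these genes are strongest in periportal hepatocytes, while β-catenin signalling drives the opposite, pericentral programme, whose hallmark is the glutamine synthetase gene Glul.

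The 6 WRE-edited libraries (DLK1DWRE in the labels) came from livers in which a site bound by β-catenin, ahead of the DLK1/DIO3 locus, was edited. For the 5 Rosa26-edited libraries (ROSA26) the edit was at Rosa26, which often serves as a neutral site. Both groups had the ApcDHep genotype, meaning that their hepatocytes lack Apc, which holds β-catenin in check. Both were C57BL/6J mice aged 3 months that had carried AAV8, a vector that reaches hepatocytes, with constructs of the nuclease SaCas9 for 1 month, and both had tamoxifen (2 mg, 7 days). No library with intact Apc is analysed here, so every level below is a level in Apc-deficient liver, and the promoter behind the Apc deletion was not given in the sources used here. Hepatocytes were freed with collagenase. The labels do not state that the libraries are separate animals, and the library names of WRE-edited 4 and WRE-edited 6 carry the same number. The p-values therefore speak for the spread among these libraries.

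Run r770 held WRE-edited 1 to 3 and Rosa26-edited 1 to 3. Run r595 held WRE-edited 6 and Rosa26-edited 4 and 5, and run r711 held WRE-edited 4 and 5 with no control. Totals were 20727036 to 38935135 expected counts, of which the 10 genes took 0.193% to 0.391%. The share of mitochondrial ribosomal RNA was 2.29% to 3.00% in r595 and 19.0% to 29.1% elsewhere. The edit was checked on Rian, a non-coding RNA of the DLK1/DIO3 locus. It had 48.7 to 113 CPM (counts scaled to library size and composition; median 67.0) in the WRE-edited libraries, against 405, 257, 221, 361 and 171 CPM in Rosa26-edited 1 to 5, with no overlap. Hepatocyte markers summed to 54740 to 69893 CPM in the WRE-edited and 52933 to 69405 CPM in the Rosa26-edited libraries. Of other cell types, macrophage markers were the most abundant, at 406 to 545 CPM in the WRE-edited and 370 to 1257 CPM in the Rosa26-edited libraries over 10 genes, with the highest sum in Rosa26-edited 5. Endothelial markers summed to 133 to 203 CPM in the WRE-edited and 132 to 212 CPM in the Rosa26-edited libraries, and stellate cell and fibroblast markers to 44.6 to 113 CPM in the WRE-edited and 79.6 to 113 CPM in the Rosa26-edited libraries. The cholangiocyte markers Krt19, Krt7 and Epcam stayed under 0.71 CPM in each library. In bulk RNA, fewer cells of a type and less RNA per cell cannot be told apart.

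Promoter sequences were at hand for 6 of the 10 genes, from 250 bases before to 50 bases after the annotated start (RefSeq, GRCm38.p6). Those of Hal, Hsd17b13 and Nags are shown because they are the 3 of the 6 that held a match, and because these genes span the range of spread between libraries described further on, Hal with the widest and Nags with the narrowest. Capitals mark matches on either strand to CTTTGA, a core read by the TCF/LEF partners of β-catenin (TCAAAG on the other strand), and to TTNNGCAA, a form of the site of C/EBP factors (TTGCTCAA as found here). Hal lies on the plus strand (chr10:93488518-93488817), Hsd17b13 on the minus strand (chr5:103977339-103977638) and Nags on the plus strand (chr11:102145263-102145562), and each sequence is written 5′ to 3′ along its gene.
Hal: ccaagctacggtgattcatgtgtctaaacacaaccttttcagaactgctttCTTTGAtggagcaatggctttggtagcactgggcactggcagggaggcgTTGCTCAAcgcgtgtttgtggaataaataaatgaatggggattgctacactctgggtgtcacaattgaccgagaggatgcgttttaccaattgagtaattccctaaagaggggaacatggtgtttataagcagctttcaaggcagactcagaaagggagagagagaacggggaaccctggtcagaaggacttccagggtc
Hsd17b13: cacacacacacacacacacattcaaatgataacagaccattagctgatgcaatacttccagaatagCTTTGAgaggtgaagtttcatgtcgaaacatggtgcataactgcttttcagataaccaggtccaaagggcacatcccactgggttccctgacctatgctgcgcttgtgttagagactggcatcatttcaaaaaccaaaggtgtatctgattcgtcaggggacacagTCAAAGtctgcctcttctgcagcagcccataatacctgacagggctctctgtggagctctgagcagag
Nags: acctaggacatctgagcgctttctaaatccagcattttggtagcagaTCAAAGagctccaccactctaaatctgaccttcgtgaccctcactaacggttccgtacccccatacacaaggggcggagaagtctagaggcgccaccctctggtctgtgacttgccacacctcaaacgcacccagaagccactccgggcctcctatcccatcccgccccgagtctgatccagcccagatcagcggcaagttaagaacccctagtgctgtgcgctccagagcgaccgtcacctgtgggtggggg
Hal held 1 match to CTTTGA, at -199 to -194 from the start, and 1 to TTNNGCAA, at -150 to -143. Hsd17b13 held 2 matches to CTTTGA, 1 in each orientation, the nearer at -18 to -13, and Nags held 1 in the reverse orientation, at -203 to -198. CTTTGA occurred in 3 of the 6 promoters and in 16% of 32851 mouse promoters of the same length. TTNNGCAA occurred in 1 of the 6 and in 10.8% of all, and the 2 motifs share no base in these windows. CAAAGTCCA, from HNF4 sites, occurred in 0 of the 6 and in 0.475% of all, and TGACGT, from cAMP response elements, in 0 and 7.51%. A match is a run of letters and not a measured binding site.

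On the TPM scale, which corrects for transcript length and so allows genes to be set side by side, Ass1 had the highest mean level of the 10 over all libraries (265 TPM, range 146 to 397). Cps1 followed at 184 TPM (112 to 266), then Arg1 at 103 TPM (32.7 to 223), Hsd17b13 at 86.5 TPM (34.8 to 223) and Asl at 67.5 TPM (53.0 to 82.9). Otc stood at 30.0 TPM (25.9 to 35.7), Cyp2f2 at 21.6 TPM (8.54 to 50.6), Nags at 18.8 TPM (15.3 to 20.9), Gls2 at 10.1 TPM (3.62 to 27.5) and Hal at 7.83 TPM (2.13 to 18.8). Only Asl and Otc, of the neighbours in this order, had ranges that did not overlap. All 5 other urea cycle genes stood above Nags in every library on this scale, and the 2 amino acid breakdown genes were lowest in mean level. Summed over the 6 urea cycle genes the level was 495 to 932 TPM in the WRE-edited libraries (median 621) and 440 to 960 TPM in the Rosa26-edited libraries (median 667). Glul, for scale, was at 1531 to 4143 TPM in the WRE-edited and 1733 to 3463 TPM in the Rosa26-edited libraries, 8.98-fold the mean of Ass1.

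TPM counts mitochondrial RNA in its total, so libraries are compared below in CPM scaled with TMM factors, which set the bulk of genes level between libraries. The effective length of Ass1 was 1253 to 1326 bases in r595 and 1460 to 1498 bases in the other runs, which also enters its TPM.

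WRE editing was compared with Rosa26 editing in 1 fit over all genes with the run as a term, so that the log2 fold changes (WRE-edited over Rosa26-edited) rest on r770 and r595. None of the 10 genes passed (adjusted p under 0.05), where edgeR called 1 of 14393 genes (0.00695%) and that gene was Rian. DESeq2 also called 0 of the 10, against 0.6% of the genes it tested. At an unadjusted p under 0.05 edgeR held 1 of the 10, Ass1, against 10.1% of all genes, so the count is that of the background. Of the 10 log2 fold changes 7 were negative, with a median of -0.20, against a median of 0.01 and 48.3% negative over all genes. Their median size without sign was 0.28, against 0.19 for all genes. Fitted with no filter on low counts, over 27704 genes, Arg1 (-0.61, edgeR adjusted p = 0.0293) and Hal (-0.75, adjusted p = 0.00244) passed, where 1.62% of the genes did. Their standard errors were 0.17 and 0.17 there, against 0.44 and 0.73 in the main fit, with nearly the same fold changes. Without the filter the standard errors of the 10 genes lay between 0.16 and 0.18, so the wide spread of single genes hardly entered those p-values. In the 25 other alternatives 0 of the 10 passed. No gene of the 10 had groups that did not overlap over the 11 libraries, against 0.375% of all genes.

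**Figure D1:**
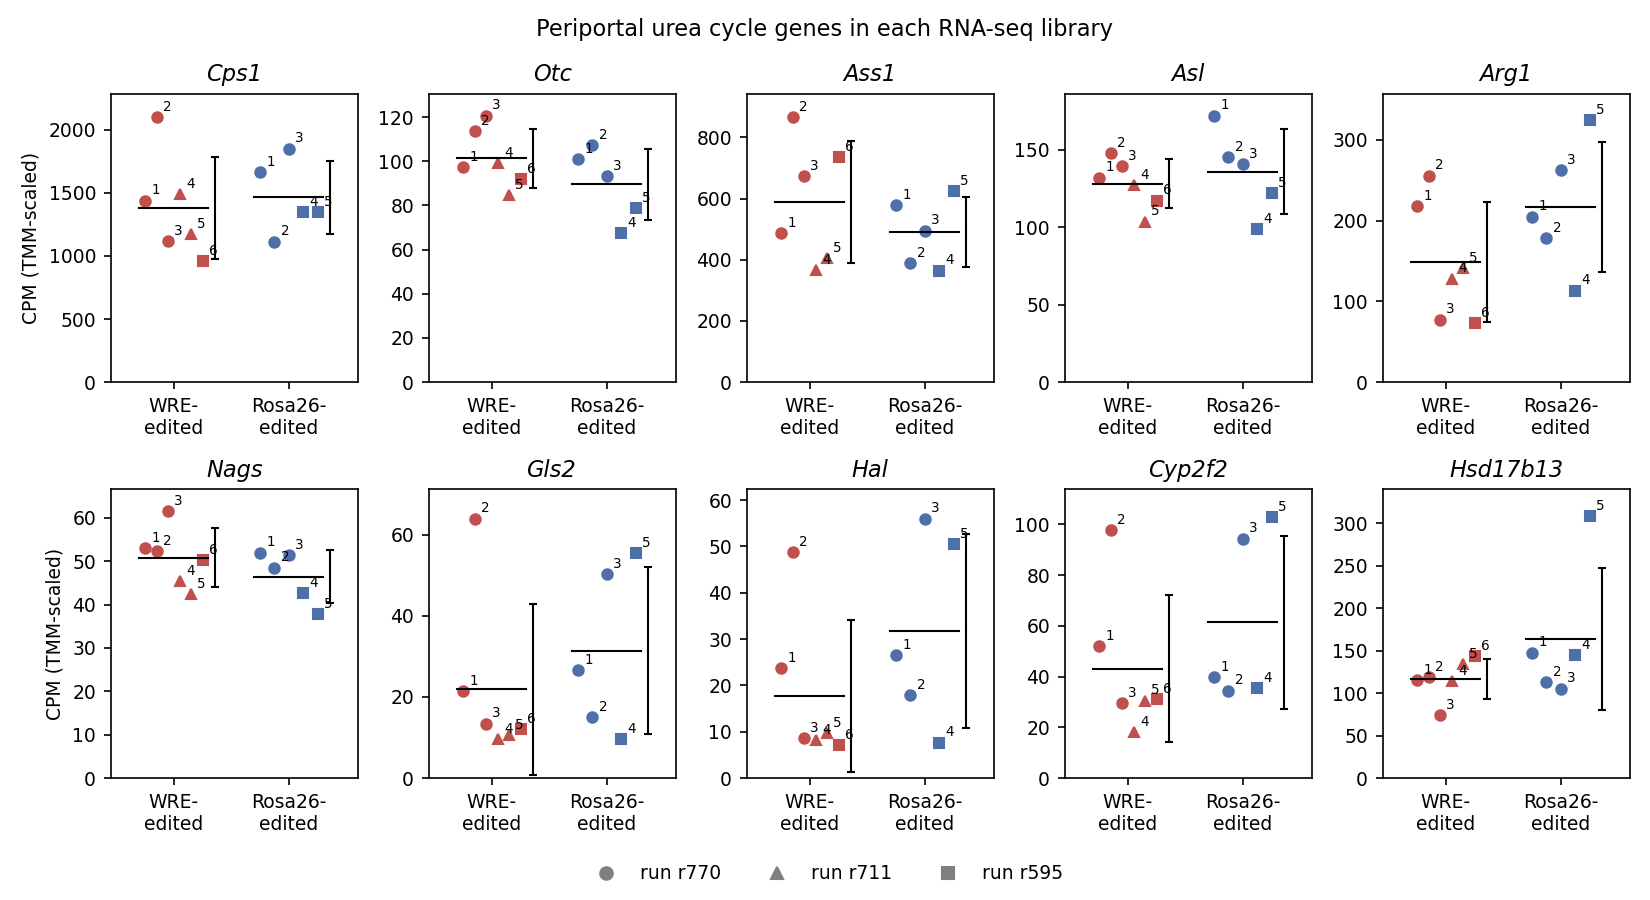
Each panel plots 1 gene, with CPM (TMM-scaled, linear axis from 0) on the vertical axis and the 6 WRE-edited libraries left of the 5 Rosa26-edited ones. Numbers are replicate numbers, shapes are runs, horizontal lines are group means and bars beside them are 1 SD; the groups overlap in all 10 panels, and WRE-edited 2, Rosa26-edited 3 and Rosa26-edited 5 stand above the rest for Gls2, Hal and Cyp2f2.

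Of the 10 genes Nags, the activator gene, differed least between libraries. Nags (ENSMUSG00000048217; chromosome 11, 102145513 to 102149528) had 42.4 to 61.5 CPM in the WRE-edited libraries (median 51.3), against 51.9, 48.5, 51.3, 42.6 and 37.8 CPM in Rosa26-edited 1 to 5. In r770 its 3 WRE-edited libraries (52.4 to 61.5 CPM) all lay above its 3 Rosa26-edited ones (48.5 to 51.9 CPM), a separation that 7.64% of all genes showed in either direction and that 1 of the 10 genes showed. The exact two-sided permutation p there was 0.1, the smallest that 3 against 3 allows. Its log2 fold change was 0.19 ± 0.11 (SE; edgeR adjusted p = 0.535), with a 95% interval of -0.06 to 0.45.

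Cps1 (ENSMUSG00000025991; chromosome 1, 67122426 to 67231267) took the most counts of the 10. It had 959 to 2101 CPM in the WRE-edited libraries (median 1307), against 1662, 1114, 1851, 1349 and 1350.0 CPM in Rosa26-edited 1 to 5. WRE-edited 2 was the highest of all and WRE-edited 6 the lowest, so the WRE-edited group spanned the whole of the other. The log2 fold change was -0.14 ± 0.21 (edgeR adjusted p = 0.822), at -0.01 within r770 and -0.49 within r595.

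Otc (ENSMUSG00000031173; chromosome X, 10252230 to 10321024) had 84.8 to 121 CPM in the WRE-edited libraries (median 98.4), against 101, 107, 93.3, 67.4 and 79.0 CPM in Rosa26-edited 1 to 5. The 2 highest values were those of WRE-edited 3 and 2, and the 2 lowest those of Rosa26-edited 4 and 5 from r595. Its log2 fold change was 0.20 ± 0.12 (edgeR adjusted p = 0.564; 95% interval -0.08 to 0.47), positive in both runs (0.14 in r770, 0.33 in r595).

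Ass1 (ENSMUSG00000076441; chromosome 2, 31470270 to 31520670) had the smallest p of the 10 and ranked 849 among all genes. It stood at 367 to 865 CPM in the WRE-edited libraries (median 580.3), against 578, 389, 495, 365 and 625.2 CPM in Rosa26-edited 1 to 5. WRE-edited 2, 6 and 3 were above every Rosa26-edited library, while WRE-edited 4 and 5 were among the lowest. The log2 fold change was 0.50 ± 0.20 (95% interval 0.03 to 0.97; edgeR p = 0.0263, adjusted p = 0.443), with 0.45 within r770 (exact permutation p = 0.3) and 0.62 within r595. Over 26 alternative settings it kept its sign, from 0.14 to 0.63.

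Reads of Ass1 are partly shared with Gm5424, a transcribed pseudogene on chromosome 10 (62071022 to 62072571). The expected counts of both were not whole numbers in 9 libraries, while their sum was whole in all 11 (within 0.011), and Gm5424 held 7.34% to 10.2% of the sum. With both counts summed the log2 fold change was 0.50 ± 0.20 (edgeR adjusted p = 0.447). Nags in 10 libraries, Cyp2f2 in 11 and Gls2 in 1 also had counts that were not whole, as happens when reads are divided between features.

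Asl (ENSMUSG00000025533; chromosome 5, 130011258 to 130024381) had 104 to 148 CPM in the WRE-edited libraries (median 129.6), against 172, 145, 141, 98.9 and 122 CPM in Rosa26-edited 1 to 5. Rosa26-edited 1 was the highest and Rosa26-edited 4 the lowest, with the WRE-edited values between them. Its log2 fold change was the closest to 0 of the 10, at -0.06 ± 0.12 (edgeR adjusted p = 0.865; 95% interval -0.35 to 0.23).

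Arg1 (ENSMUSG00000019987; chromosome 10, 24915207 to 24927470) was the urea cycle gene that varied most. It had 73.2 to 255 CPM in the WRE-edited libraries (median 135), against 205, 178, 262, 113 and 324 CPM in Rosa26-edited 1 to 5. WRE-edited 6 and 3 (73.2 and 77.5 CPM) were below every other library, and Rosa26-edited 5 was above all. The log2 fold change was -0.60 ± 0.44 (edgeR adjusted p = 0.635), with a 95% interval of -1.64 to 0.43. It was -0.38 within r770 (exact permutation p = 0.8) and -1.39 within r595, and -0.23 without WRE-edited 6.

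Gls2, the liver glutaminase that releases ammonia from glutamine (ENSMUSG00000044005; chromosome 10, 128194635 to 128210004), had 9.66 to 63.9 CPM in the WRE-edited libraries (median 12.8). Rosa26-edited 1 to 5 had 26.6, 15.04, 50.3, 9.69 and 55.4 CPM. WRE-edited 2, Rosa26-edited 5 and Rosa26-edited 3 stood at 50.3 CPM or more, and the other 8 libraries at 26.6 CPM or less. The log2 fold change was -0.31 ± 0.69 (edgeR adjusted p = 0.882; 95% interval -1.94 to 1.33). Its sign rested on single libraries, at -1.02 without WRE-edited 2, 0.01 without Rosa26-edited 3 and 0.17 without Rosa26-edited 5.

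Hal, histidase, which opens the breakdown of histidine (ENSMUSG00000020017; chromosome 10, 93488768 to 93516761), had 7.19 to 48.8 CPM in the WRE-edited libraries (median 9.22). In Rosa26-edited 1 to 5 it had 26.6, 17.97, 56.0, 7.66 and 50.5 CPM. The same 3 libraries were the highest, and 4 of the 6 WRE-edited libraries had under 10 CPM. Hal had the largest log2 fold change in size of the 10, -0.75 ± 0.73 (edgeR adjusted p = 0.725), and the widest interval, -2.47 to 0.97. It was -0.47 within r770 and -1.45 within r595, and over the leave-one-out fits it ran from -1.36 without WRE-edited 2 to -0.24 without Rosa26-edited 5.

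Cyp2f2, a cytochrome P450 gene much used as a periportal marker (ENSMUSG00000052974; chromosome 7, 27119955 to 27133660), had 18.1 to 97.9 CPM in the WRE-edited libraries (median 30.9). In Rosa26-edited 1 to 5 it had 39.9, 34.5, 94.4, 35.4 and 103 CPM. The high 3 were again WRE-edited 2, Rosa26-edited 3 and Rosa26-edited 5. The log2 fold change was -0.26 ± 0.52 (edgeR adjusted p = 0.869), with opposite signs in the runs (0.07 in r770, -0.95 in r595), and it was 0.03 without these 3 libraries.

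Hsd17b13, which encodes a lipid droplet protein of hepatocytes (ENSMUSG00000034528; chromosome 5, 103955442 to 103977388), had 74.1 to 143 CPM in the WRE-edited libraries (median 117). In Rosa26-edited 1 to 5 it had 148, 113, 105, 145 and 309 CPM. Rosa26-edited 5 was more than any other library, and the 10 others lay between 74.1 and 148 CPM. The log2 fold change was -0.37 ± 0.23 (edgeR adjusted p = 0.580; 95% interval -0.91 to 0.17), and it was -0.18 without Rosa26-edited 5.

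**Figure D2:**
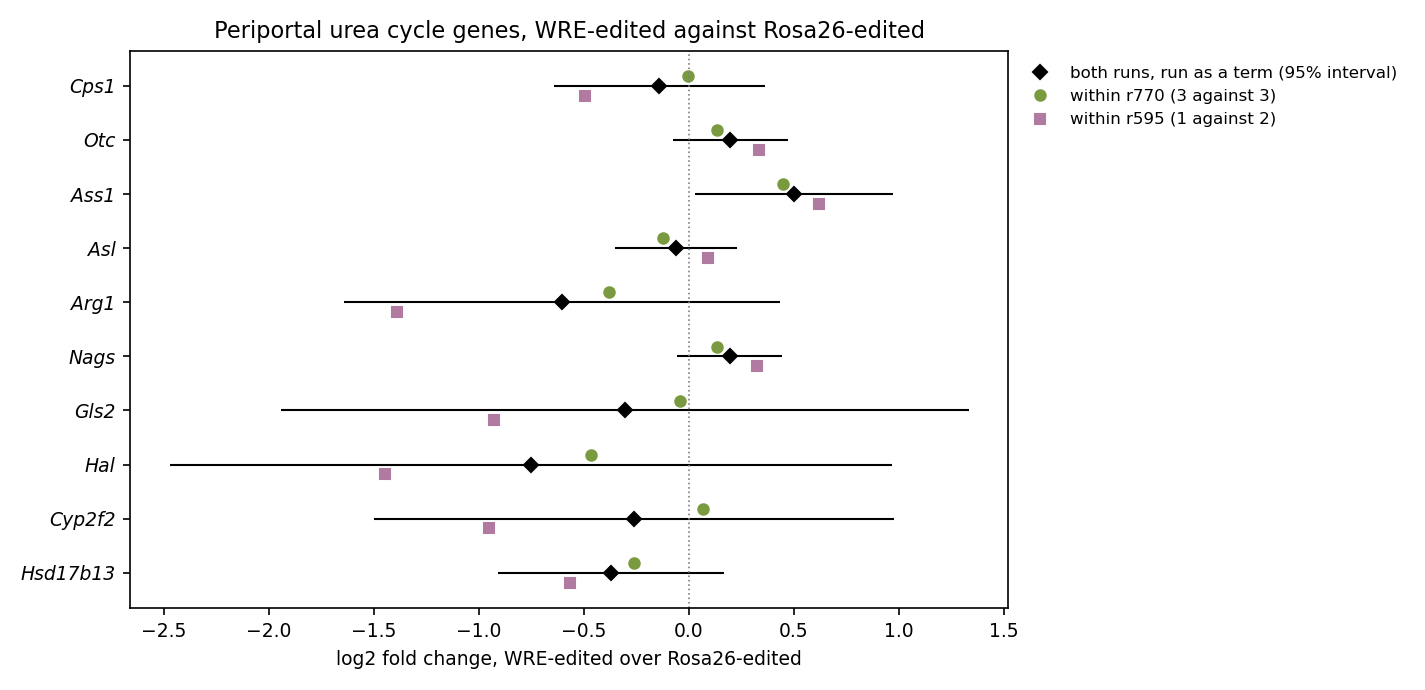
The horizontal axis is the log2 fold change (WRE-edited over Rosa26-edited). Diamonds with lines are the fit over all libraries with its 95% interval, circles are differences within r770 and squares within r595; of the 10 intervals that of Ass1 (0.03 to 0.97) leaves out 0, and the squares lie farther from 0 than the circles except for Asl.

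Within r595, which held 1 WRE-edited library, the differences were further from 0 than within r770 in 9 of the 10 genes, as the plot of fold changes shows. For Arg1, Gls2, Hal and Cyp2f2 the r595 difference was between -1.45 and -0.93, and for Nags, Otc and Ass1 between 0.32 and 0.62. A test of the difference between runs called 0 of the 10 (edgeR interaction, 0% of 14582 genes called), with 0 at an unadjusted p under 0.05 against 6.52% of all genes. With WRE-edited 6 alone on that side, this does not show that the runs were alike.

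The 10 genes differed widely in their spread between libraries. The log2 CPM values were centred on the mean of their run, and the SD of these values over the 11 libraries was 1.00 for Hal, 0.89 for Gls2, 0.69 for Cyp2f2 and 0.68 for Arg1. Of all genes tested, 97.4%, 95.8%, 90.9% and 90.3% had a smaller SD than these 4. The SD was 0.12 for Nags, 0.13 for Asl and 0.15 for Otc, below the median of all genes (0.27), and 0.31 to 0.37 for Cps1, Hsd17b13 and Ass1. From the lowest to the highest library the run-centred level spanned 10.4-fold for Hal, 5.88-fold for Gls2, 5.59-fold for Arg1 and 3.73-fold for Cyp2f2, but 1.33-fold for Nags. The fewest expected counts behind these values were 164 for Hal in WRE-edited 6, 203 for Gls2 in WRE-edited 4 and 381 for Cyp2f2 in WRE-edited 4.

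**Figure D3:**
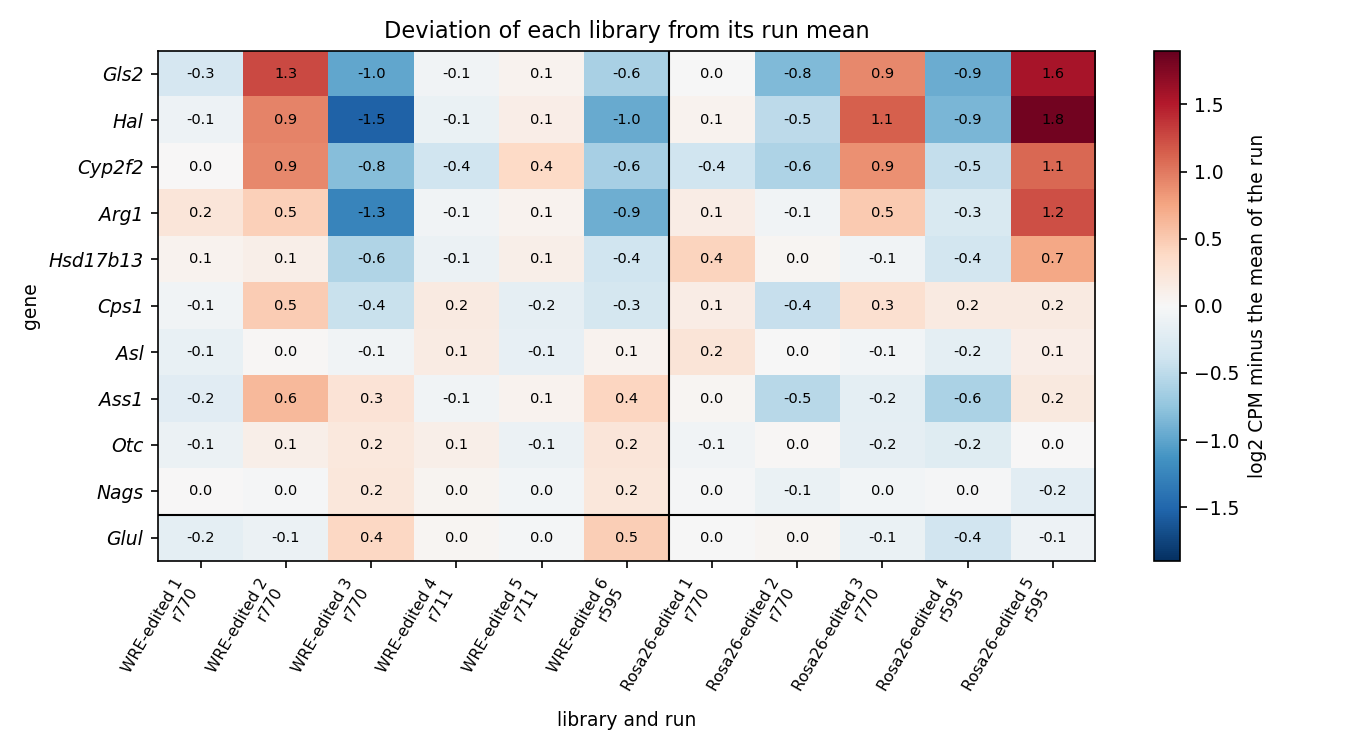
Rows are the 10 genes with Glul below, columns are the libraries with WRE-edited left of Rosa26-edited, and colour and numbers give log2 CPM minus the mean of the library's run (red higher, blue lower). WRE-edited 2, Rosa26-edited 3 and Rosa26-edited 5 are red and WRE-edited 3 and 6 are blue for Gls2, Hal, Cyp2f2 and Arg1, while Nags, Otc and Glul are highest in WRE-edited 3 and 6.

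A set of 3 libraries stood apart for Gls2, Hal and Cyp2f2. WRE-edited 2 lay above its run mean on the log2 scale by 1.25 for Gls2, 0.94 for Hal and 0.92 for Cyp2f2. Rosa26-edited 3 lay above it by 0.91 for Gls2, 1.14 for Hal and 0.86 for Cyp2f2, and Rosa26-edited 5 by 1.56 for Gls2, 1.84 for Hal and 1.09 for Cyp2f2. For each of these genes the widest gap between neighbouring libraries fell just under these 3, and 1 was WRE-edited and 2 were Rosa26-edited. The summed CPM of 17 other periportal genes was also highest in the same libraries, at 8390 CPM in WRE-edited 2, 8073 CPM in Rosa26-edited 3 and 8918 CPM in Rosa26-edited 5, against 6000 to 7386 CPM in the other 8. Serpina1e made up 23.4% and Vtn 23.1% of that sum, and its members include secreted plasma proteins.

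Other measures moved with some of these libraries. In r770, WRE-edited 2 and Rosa26-edited 3 had the lowest share of mitochondrial ribosomal RNA (19.0% and 19.2%), while Rosa26-edited 5 had 2.54%, within the range of r595. The hepatocyte marker sum was 69893, 65698 and 69405 CPM in WRE-edited 2, Rosa26-edited 3 and Rosa26-edited 5. In the other 8 libraries it was 52933 to 65770 CPM, with Rosa26-edited 1 just above Rosa26-edited 3. The macrophage marker sum was 489, 370 and 1257 CPM in these libraries, the lowest and the highest of the Rosa26-edited group among them. Their part in the levels of Gls2, Hal and Cyp2f2 was not tested.

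The opposite pattern was seen in WRE-edited 3 and 6. On the log2 scale centred on the run, Arg1 lay at -1.26 and -0.93 there and Hal at -1.54 and -0.96, the lowest values of both genes. In the same 2 libraries Nags was 0.22 and 0.22 above its run mean, Otc 0.20 and 0.22, and Glul 0.39 and 0.47, the highest of the 11. With WRE-edited 2 and Rosa26-edited 3 and 5 left out, the log2 fold change was -0.34 ± 0.34 for Hal, -0.07 ± 0.26 for Gls2 and -0.46 ± 0.32 for Arg1, and 0 of the 10 genes passed in edgeR, with 1 at an unadjusted p under 0.05.

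Co-variation was tested with Pearson's r and Spearman's rho on run-centred log2 CPM, with two-sided permutation p-values adjusted over all 45 pairs. For Gls2, Hal and Cyp2f2 the widest gap fell just under the same 3 libraries. No r over all 11 libraries is therefore given for their pairs with the other genes. Arg1 was also highest in these 3 libraries. On the run-centred log2 scale it lay at 1.22 in Rosa26-edited 5, 0.50 in Rosa26-edited 3 and 0.46 in WRE-edited 2. Its widest gap fell under Rosa26-edited 5 alone. A wide gap was not particular to Gls2, Hal and Cyp2f2. The widest gap took 40% of the run-centred range for Nags and 41% for Glul, in both with WRE-edited 3 and 6 above it. It took 33% for Gls2, 26% for Cyp2f2 and 24% for Hal. The r values of Arg1, Nags and Glul over 11 libraries are given below with these limits. With WRE-edited 2 and Rosa26-edited 3 and 5 left out, 2 of the 24 pairs with Gls2, Hal or Cyp2f2 passed by r. By rho too 0 passed. These p-values over 8 libraries cannot decide whether the genes co-vary, since 2 of the 3 runs then hold 2 libraries each. Once centred such libraries mirror each other, which leaves fewer than 6 independent values. Among the 21 pairs of the other 7 genes r ran from -0.87 to 0.87 with a median of 0.21, 5 pairs had an unadjusted permutation p under 0.05, and 3 passed by r, 1 of them by rho too. Centring makes WRE-edited 4 and 5, the only libraries of r711, mirror images of each other, and the 11 centred values of a gene hold 8 independent ones, so the permutation p-values, which treat all 11 as independent, are too small.

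Arg1 and Hsd17b13 moved together across libraries, with r = 0.874 and rho = 0.791 (n = 11; permutation p = 0.00074, adjusted 0.00555 for r and 0.0332 for rho). Arg1 and Nags moved in opposite directions, with r = -0.872 (permutation p = 0.00153, adjusted 0.00861) and rho = -0.636 (adjusted 0.109). Nags and Hsd17b13 did so too, with r = -0.795 (permutation p = 0.00406, adjusted 0.0183) and rho = -0.718 (adjusted 0.0599).

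Without the 2 libraries farthest from the median of the first gene r was 0.657 for Arg1 with Hsd17b13, -0.694 for Arg1 with Nags and -0.633 for Nags with Hsd17b13 (exact permutation p adjusted 0.361 for each), so all 3 kept their sign and none passed without those libraries. Within the 6 libraries of r770 the same pairs had r of 0.769, -0.795 and -0.740, and none passed (exact permutation p adjusted 0.453, 0.460 and 0.460). Centred on run and group the values were 0.842, -0.846 and -0.771, and all 3 passed by r. The lone WRE-edited library of r595 then holds no value of its own, and the Rosa26-edited libraries of r595 become mirror images. Even fewer independent values remain than with centring on the run alone. These permutation p-values are therefore too small and cannot decide whether the genes co-vary. Without centring on the run, Arg1 had r of 0.445 with Hsd17b13 and -0.287 with Nags, neither of which passed, and Nags with Hsd17b13 had -0.806.

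Glul, the pericentral counterpart, was set against each of the 10 genes, with p-values adjusted over these 10 pairs. It passed with Otc alone among the 7 genes with values over 11 libraries, at r = 0.844 and rho = 0.836 (permutation p = 0.00045, adjusted 0.0045 for r and 0.021 for rho). The 2 genes were highest together in WRE-edited 6 and 3 and lowest together in Rosa26-edited 4. Without the 2 libraries farthest from the median of Otc r was 0.704 (exact permutation p adjusted 0.187) and did not pass without them, and within r770 it was 0.750 (exact permutation p adjusted 0.208). Centred on run and group r was 0.780 (permutation p adjusted 0.0222, too small for the reason given above), and without centring on the run it was -0.06. Arg1 with Glul had r = -0.674 (permutation p adjusted 0.0744) and Cps1 with Glul r = -0.644 (adjusted 0.0744), neither of which passed.

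**Figure D4:**
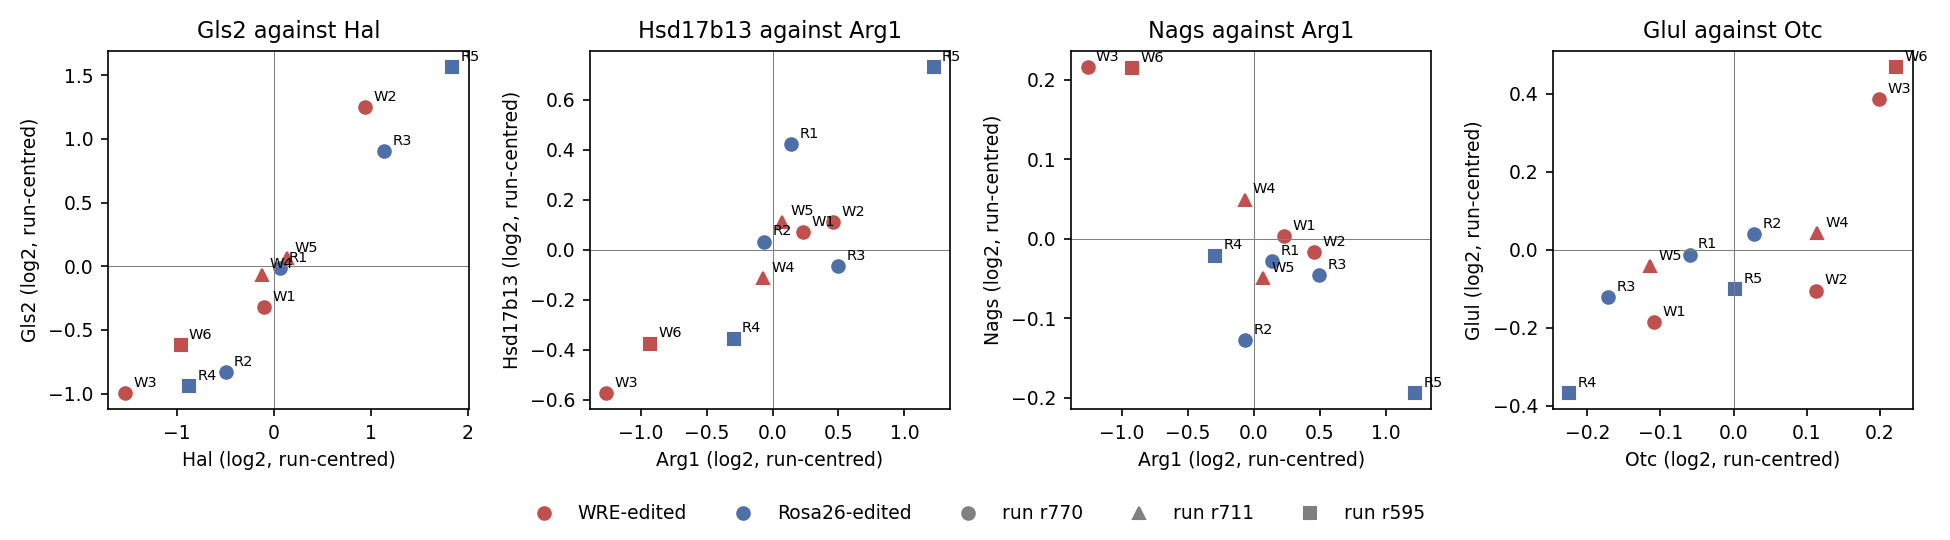
Each point is 1 library (W, WRE-edited; R, Rosa26-edited; shapes are runs) and both axes give log2 CPM minus the run mean, for Gls2 against Hal, Hsd17b13 against Arg1, Nags against Arg1 and Glul against Otc. W2, R3 and R5 lie apart at the upper right in the first panel, and W3, W6 and R5 lie at the ends of the 2 panels with Arg1.

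As a description, the 2 other genes with the run-centred profile most like each of the 10 were picked by Pearson's r over the 11 libraries, among 3054 genes with enough reads. Cps1 was closest to Uroc1, the urocanase that follows Hal in histidine breakdown (r = 0.971), and Onecut2, a liver transcription factor gene (0.959). Otc was close to Cdv3 (r = 0.961), and Asl was closest to Clcn4 (0.933) and Rnd3 (0.901). Ass1 was closest to Gm5424 (r = 0.987), with which it shares reads, and Klhdc10 (0.962). Arg1 was closest to Gm4070 (r = 0.979) and the albumin gene Alb (0.972), and Nags to Aldh2, an aldehyde dehydrogenase gene (0.950), and the carboxylesterase gene Ces1c (0.949).

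Gls2 was closest to Pzp, a plasma protease inhibitor gene, and Trabd, and Hal to Sec24d, a coat protein gene of the secretory pathway, and Zfp91. Cyp2f2 was closest to Ptprj and the complement gene C1s1. As the widest gap of Gls2, Hal and Cyp2f2 fell just under the same 3 libraries, their r over the 11 is left out. The r values given above for Arg1, also highest in those 3 libraries, carry that limit. Over the other 8 libraries, where few independent values remain, r of Gls2 with Trabd was 0.388. With so few values this does not show how far that likeness rested on the 3 high libraries. The other pairs of these 3 genes had r over the 8 from 0.816 (Cyp2f2 with Ptprj) to 0.889 (Hal with Sec24d). Hsd17b13 was closest to the water channel gene Aqp8 (r = 0.963) and the flippase gene Atp8b1 (0.944).

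The partners of the cycle, which bring in aspartate, glutamate and ornithine or handle glutamine, were covered by a list of 28 genes of which 26 were tested. edgeR called 0 of them, 3 were higher and 2 lower at an unadjusted p under 0.05 (4.95% and 5.14% of all genes), and the median log2 fold change was 0.13. DESeq2 called 2 of the 26, where its share over all genes was 0.6%. Slc25a12, a mitochondrial aspartate and glutamate carrier, had 10.8 to 13.2 CPM in the WRE-edited libraries (median 11.7), against 16.9, 15.5, 14.5, 17.4 and 15.8 CPM in Rosa26-edited 1 to 5. The groups did not overlap, which held for 0.375% of all genes. The log2 fold change of Slc25a12 was -0.50 ± 0.11 (edgeR adjusted p = 0.281, DESeq2 adjusted p = 0.0161).

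Asns, the asparagine synthetase gene, had 1.61 to 9.16 CPM in the WRE-edited libraries (median 4.41), against 2.26, 2.14, 2.10, 1.70 and 2.39 CPM in Rosa26-edited 1 to 5. WRE-edited 1 lay below and WRE-edited 4 within the Rosa26-edited range, and the other 4 lay above it. Its log2 fold change was 1.55 ± 0.41 (edgeR adjusted p = 0.384, DESeq2 adjusted p = 0.0313), and it was 0.74 when a replicate block took the place of the run. The alanine transaminase gene Gpt had a log2 fold change of 0.33 ± 0.12 (edgeR adjusted p = 0.441).

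Genes of histidine, serine, glycine and proline breakdown, 15 listed and 15 tested, had a median log2 fold change of 0.10. edgeR called 0, DESeq2 called 0, and 1 was higher at an unadjusted p under 0.05. That gene was Aldh4a1, of proline breakdown, at 0.33 ± 0.14 (edgeR adjusted p = 0.469), followed by Shmt2 (0.25 ± 0.14), Prodh2 (0.26 ± 0.16) and Agxt (0.15 ± 0.11). The 17 other periportal genes had a median of 0.07 and none of them reached an unadjusted p under 0.05 in edgeR (0 of 17) or passed in DESeq2 (0 of 17). Serpina1e, at 867 to 2027 CPM in the WRE-edited and 988 to 3252 CPM in the Rosa26-edited libraries, had -0.48 ± 0.32 (edgeR adjusted p = 0.603), Ctsc -0.51 ± 0.28, Mup20 -0.41 ± 0.26 and Apoa4 0.38 ± 0.22.

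The 22 pericentral genes tested had a median of 0.13, with 2 higher and 1 lower at an unadjusted p under 0.05, 0 called by edgeR and 0 by DESeq2. Of 16 listed transcription factors and hormone receptors that act on these metabolic genes, 6 were higher and 0 lower at an unadjusted p under 0.05 (4.95% and 5.14% of all genes), and the median was 0.33. edgeR called 0 and DESeq2 called 3, where it called 0.6% of all genes. These were Foxa2 (0.80 ± 0.17), Foxa3 (0.46 ± 0.10) and Creb3l3 (0.52 ± 0.13), liver transcription factor genes, at edgeR adjusted p = 0.262, 0.266 and 0.361. Creb3l3 had 103 to 173 CPM in the WRE-edited libraries (median 137), against 94.7, 93.7, 89.5, 68.3 and 80.0 CPM in Rosa26-edited 1 to 5. Its groups did not overlap, which held for 0.375% of all genes. The groups did overlap for Foxa2, at 11.2 to 40.1 CPM (WRE-edited) and 8.66 to 20.3 CPM (Rosa26-edited). They also overlapped for Foxa3, at 32.0 to 40.8 CPM (WRE-edited) and 24.7 to 32.7 CPM (Rosa26-edited). Foxa2 was at 0.16 when a replicate block took the place of the run.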

How the data were processed

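The authors deposited a table of expected counts for each library. The submitters' processing notes name GRCm38, RSEM 1.3.1 and STAR 2.7.6a. Per the file headers, the tables also hold TPM and, as other values, effective lengths in bases. The authors' matrix of normalized signal (15322 genes) was an alternative, and the submitters' processing notes name DESeq2 1.26.0 and R 3.6.3. No source used here states the strand setting, and antisense reads cannot be told apart. The run was read from the library names. The miRNA-seq libraries (3 per group) were not used.

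Expected counts were rounded and fitted in R 4.3.3 with edgeR 4.0.16 (filterByExpr by group, minimum count 10, minimum total 15, TMM factors, robust quasi-likelihood, run and group as terms, 7 residual degrees of freedom, two-sided, Benjamini-Hochberg adjustment over 14393 genes, threshold 0.05). DESeq2 1.42.0 and limma 3.58.1 were alternatives. Standard errors came from the quasi-likelihood statistic and 95% intervals from the residual degrees of freedom. Correlations used log2 CPM with a prior count of 2 and 100000 permutations, or all permutations up to 9 libraries (scipy 1.17.1). Gene symbols matched 55450 of 55536 identifiers. The scripts were tested on simulated data. Replicates of a group differed beyond counting noise in every pair. The genes and lists were chosen with earlier results of these data known. Besides these genes, named genes were Glul and Rian, up to 4 of each list by smallest p, and the 2 most alike in profile, and markers were summed over fixed lists. A few genes taken by these rules are not reported here.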

Additional observations from a re-analysis of the deposited data

Results flagged for a closer look

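In 24 groups of values (the CPM of the 10 genes and 2 sums of their TPM, in each of the 2 groups of libraries), the farthest library was compared with the spread of its group, and 2 values lay farther out than the 95% limit for a single far sample. Chance gives about 1 such value in 20 groups. Gls2 in WRE-edited 2 was at 63.9 CPM, and its gap to the next WRE-edited library was 0.782 of the range of that group, above the limit of 0.625 for 6 samples. Hsd17b13 in Rosa26-edited 5 was at 309 CPM, with a gap of 0.792 of the range, above the limit of 0.710 for 5 samples.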

How the results depend on the processing

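Each fold change and count of genes was recomputed under 26 alternatives, and each correlation and count of pairs under 6; levels, spread, likeness and motif matches were not recomputed. Otc, Ass1, Arg1, Nags, Hal and Hsd17b13 kept their sign in all of them. With r770 alone the log2 fold change was 0.023 for Cps1, 0.12 for Gls2 and 0.10 for Cyp2f2. Without WRE-edited 6 it was 0.0096 for Cps1, 0.11 for Gls2 and 0.088 for Cyp2f2. Without Rosa26-edited 1 it was 0.012 for Asl, without Rosa26-edited 3 it was 0.0099 for Gls2 and 0.094 for Cyp2f2, and without Rosa26-edited 5 it was 0.17 for Gls2 and 0.032 for Cyp2f2. Leaving out 1 library at a time gave -0.35 to 0.0096 for Cps1, -0.13 to 0.012 for Asl, -1.02 to 0.17 for Gls2 and -0.70 to 0.094 for Cyp2f2. Without WRE-edited 2 and Rosa26-edited 3 and 5, chosen after seeing the data, Cyp2f2 was at 0.029. Of the 10 genes, 2 were called with no filter (1.62% of the genes then tested) and 0 in every other alternative. The standard errors of these 2 genes were smaller with no filter than in the main fit. Over all genes, the number higher was 17 with DESeq2 and 132 with no filter, against 0. The number lower was 66 with DESeq2, 318 with no filter, 0 with limma on the deposited matrix, 0 with no run term, 0 with r770 alone and 0 with r770 and r595 alone, against 1, and 0 to 2 when 1 library was left out. Of the 21 pairs 0 were called within r770, 0 without the 2 farthest libraries and 0 over 8 libraries, where few independent values remain, against 3, and r of Otc with Glul was -0.059 without centring on the run. The causes were not tested.

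No pairing by the replicate numbers of the labels was seen, but for some libraries it could not be judged. Correlations of same-numbered libraries ran from -0.174 to 0.282, and 0 of 10 matched best with their own number. The WRE-edited libraries of r711 had their same-numbered Rosa26-edited libraries in r595, so number and run cannot be told apart there. The same-numbered libraries of r770 shared a run, with correlations of 0.203, -0.174 and 0.282. With the number as a replicate block beside the run, Cyp2f2 was at 0.10 and 2 genes were called lower over all genes, with 0 of the 10 called.

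Expected counts of the 10 genes were 164 to 72634 per library. Run r595 held 1 WRE-edited library and r711 no control, and the intervals of Hal, Gls2 and Cyp2f2 allow changes in either direction.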
